A study of Mus musculus with 12 samples.

Results

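The enzymes that build cholesterol and fatty acids were measured in regulatory T cells (Treg) as 31 genes, chosen by symbol, of the 41457 genes counted per library. All 31 were found by name in the gene tables, each once. They were grouped by role into 7 genes of the mevalonate segment, 9 of the squalene and sterol segment, 2 of sterol handling, 4 regulators and 9 of the fatty acid segment.

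Cells make cholesterol from acetyl-CoA by way of mevalonate, squalene and lanosterol, and fatty acids from acetyl-CoA by carboxylation, elongation and desaturation. The transcription factors SREBP1 and SREBP2, encoded by Srebf1 and Srebf2, switch these genes on after the escort protein SCAP carries them out of the endoplasmic reticulum, and INSIG proteins hold SCAP back when sterol is plentiful. T cells that are activated through their antigen receptor are known to raise both pathways as they prepare to grow and divide.

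RNA came from splenic RFP+CD4+ cells sorted from CD18fl/fl mice that carry Foxp3Cre and a red fluorescent reporter, named CD18Foxp3, and from CD18wt littermates. Both genotypes carry Foxp3Cre and the reporter, and Cre acts in cells that express Foxp3, so only those cells lose exon 3 of Itgb2, which encodes CD18. The ages of these mice are not given in the sources used here. Cells were cultured overnight in 5 U/mL recombinant human IL-2 (unstimulated), or in the same IL-2 with 1 µg/mL anti-CD3 and 2 µg/mL anti-CD28 (stimulated), with 3 libraries in each of the 4 groups. The labels call the replicates biological, and p-values measure the spread between these libraries.

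The libraries held 10665174 to 19005482 exon reads. The targeted gene Itgb2 stood at 465, 431 and 387 TPM (transcript level per exon length, scaled to 1 total in every library) in unstimulated CD18wt and at 229, 257 and 234 TPM in unstimulated CD18Foxp3 Treg, and at 331, 329 and 330 against 131, 202 and 183 TPM after stimulation, so the genotypes did not overlap in either culture. Reads of the remaining exons are still counted. Foxp3 was detected at 73.4 to 207 TPM in all 12 libraries. The NK cell marker Ncr1 had no exon read in any library. Another, Klrb1c, was at 3.73, 4.16 and 5.32 TPM in unstimulated CD18wt and at 2.37, 1.58 and 2.71 TPM in unstimulated CD18Foxp3 Treg. After stimulation Klrb1c was at 0 TPM in CD18wt and at most 0.243 TPM in CD18Foxp3 Treg. The B cell marker Ms4a1 did not exceed 0.557 TPM. The summed level of the 4 B cell markers was 22.6 to 30.4 TPM in the unstimulated and 8.75 to 19.8 TPM in the stimulated libraries, mostly Cd79b, and that of the 5 myeloid markers was 121 to 209 TPM throughout, mostly Cst3. The 3 erythroid markers summed to between 0 and 32.1 TPM. The 4 CD8 T and NK cell markers summed to 25.3 to 35.7 TPM unstimulated and 12.6 to 25.8 TPM stimulated, mostly Cd8b1. The part of these cells in the results was not tested. In bulk RNA, fewer cells of a type and less RNA per cell cannot be told apart.

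Library 1 of stimulated CD18Foxp3 Treg stood apart. Its genes with the highest GC content, 55.1% or more of the longest annotated transcript, had a median log2 level 0.583 below its group mates, and those with the lowest, up to 43.5%, a median 0.373 above them. In the other 9 libraries outside that group, the medians of these GC classes differed by at most 0.138. All 8 members in the highest GC class were lower in that library than in its mates, by 0.46 to 1.49 on the log2 CPM scale (reads as a share of each library's total). Counts of calls on stimulation in CD18Foxp3 Treg are therefore given with and without it. CD18wt unstimulated library 3 also differed from its mates in genes chosen to check the culture. Nr4a1 was at 50.7 against 132 and 161 TPM, Cd69 at 30.4 against 64.1 and 79.7 TPM, and Myc at 47.6 against 76.1 and 115 TPM. Il2ra (156 against 133 and 170 TPM) and Tnfrsf9 (164 against 175 and 147 TPM) lay between its mates.

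Promoter sequences are shown for Tmem97, Idi1 and Cyp51, the members whose exon reads rose most in CD18wt Treg and have 1 start in RefSeq. Hmgcs1 is shown as the only member, of the 24 with a promoter to search, that holds the sterol element searched. Mvk is shown for the most CCAAT boxes among members with a promoter that did not rise. Each line holds the 250 bases before the RefSeq start (GRCm38.p6), 5′ to 3′ on the gene's strand, with capitals for CCAAT on either strand (ATTGG when reversed) and for TCACNCCAC, a form of the sterol regulatory element that SREBP binds. Tmem97 lies at chr11:78550736-78550985 (minus strand), Idi1 at chr13:8885356-8885605 (plus), Cyp51 at chr5:4104698-4104947 (minus), Hmgcs1 at chr13:119690101-119690350 (plus) and Mvk at chr5:114444019-114444268 (plus).
Tmem97: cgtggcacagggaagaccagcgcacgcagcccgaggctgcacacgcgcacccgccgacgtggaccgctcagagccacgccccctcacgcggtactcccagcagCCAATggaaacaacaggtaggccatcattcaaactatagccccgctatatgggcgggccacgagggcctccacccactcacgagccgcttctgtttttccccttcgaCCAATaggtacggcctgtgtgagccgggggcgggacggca
Idi1: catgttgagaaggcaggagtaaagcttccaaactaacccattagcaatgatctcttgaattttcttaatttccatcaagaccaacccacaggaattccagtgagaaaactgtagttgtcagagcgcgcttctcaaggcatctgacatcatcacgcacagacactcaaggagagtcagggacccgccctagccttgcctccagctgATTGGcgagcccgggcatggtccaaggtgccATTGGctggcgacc
Cyp51: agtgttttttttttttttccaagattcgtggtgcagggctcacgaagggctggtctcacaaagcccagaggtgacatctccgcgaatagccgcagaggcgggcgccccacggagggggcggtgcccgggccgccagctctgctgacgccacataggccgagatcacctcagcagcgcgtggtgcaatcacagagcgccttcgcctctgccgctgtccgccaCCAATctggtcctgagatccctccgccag
Hmgcs1: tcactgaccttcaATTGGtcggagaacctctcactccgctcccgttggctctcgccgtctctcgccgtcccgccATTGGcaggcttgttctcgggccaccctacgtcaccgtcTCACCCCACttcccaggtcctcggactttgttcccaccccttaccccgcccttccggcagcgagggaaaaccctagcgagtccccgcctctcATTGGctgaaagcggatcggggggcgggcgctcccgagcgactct
Mvk: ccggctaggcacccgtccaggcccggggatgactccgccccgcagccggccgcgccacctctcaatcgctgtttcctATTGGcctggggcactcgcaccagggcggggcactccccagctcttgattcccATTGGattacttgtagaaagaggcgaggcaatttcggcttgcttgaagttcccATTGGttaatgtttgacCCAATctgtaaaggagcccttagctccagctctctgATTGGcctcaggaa
The Hmgcs1 stretch holds the sterol element 137 bases before the start, between CCAAT boxes at 176 and 45 bases, and the Mvk stretch holds 5 CCAAT boxes.

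Of the 31 members, 24 have a promoter in that table, and Sqle, Fdps, Fdft1, Scd1, Scd2, Fads1 and Stard4 do not. In windows of 250 bases before to 50 after a start, CCAAT, the box bound by NF-Y, was found in 19 of the 24 members (79.2%) against 41.1% of all 27025 genes with a promoter. The GC box GGGCGG, bound by SP1, was found in 19 of 24 members (79.2%) against 38.2% of all genes, and the E-box CACGTG in 5 of 24 (20.8%) against 8.09%. TCACNCCAC was found in 1 of 24 (4.17%) against 1.44%. Both strands were searched, a gene counted when any of its promoters held the letters, and genes with several starts had more sequence to search. The 27025 genes were not limited to those expressed in these cells, and a comparison with expressed genes alone was not made. Members that rose and members that did not both carried CCAAT: Idi1 and Mvk are examples.

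Stimulation of CD18wt Treg raised most of the tested members. Of the 29 members tested, 19 rose and 0 fell past the threshold, a fold change of at least 1.5 with an adjusted p of at most 0.01 (edgeR quasi-likelihood test, Benjamini-Hochberg over all genes tested). Among all 11930 genes tested, 18.7% rose and 14.9% fell. Pmvk, Acat2, Sc5d and Srebf2 lay near the threshold, and leaving out single libraries gave 15 to 19 members that rose. The median log2 fold change was 0.955 over the members and 0.0243 over all genes. In CD18Foxp3 Treg, 19 of 30 members rose and 1 fell, against 20.9% and 17.6% of 12019 genes, with a median of 1.2 over the members and 0.0146 over all genes. The risen members there include Scd1, which passed the filter only through its stimulated libraries. Without stimulated CD18Foxp3 library 1, 22 members rose and 0 fell, against 20.9% and 18.8% of 12318 genes. The added calls were Pmvk, Mvd and Srebf2, and the lost one was Acsbg1. These folds use TMM scaling of exon reads. TPM places the median gene 0.358 (CD18wt) and 0.31 (CD18Foxp3) higher on the log2 scale after stimulation, and on that scale 80.9% and 75.9% of all called genes are higher, against 55.7% and 54.3% with TMM, so levels in TPM are to be read against that shift.

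**Figure D1:**
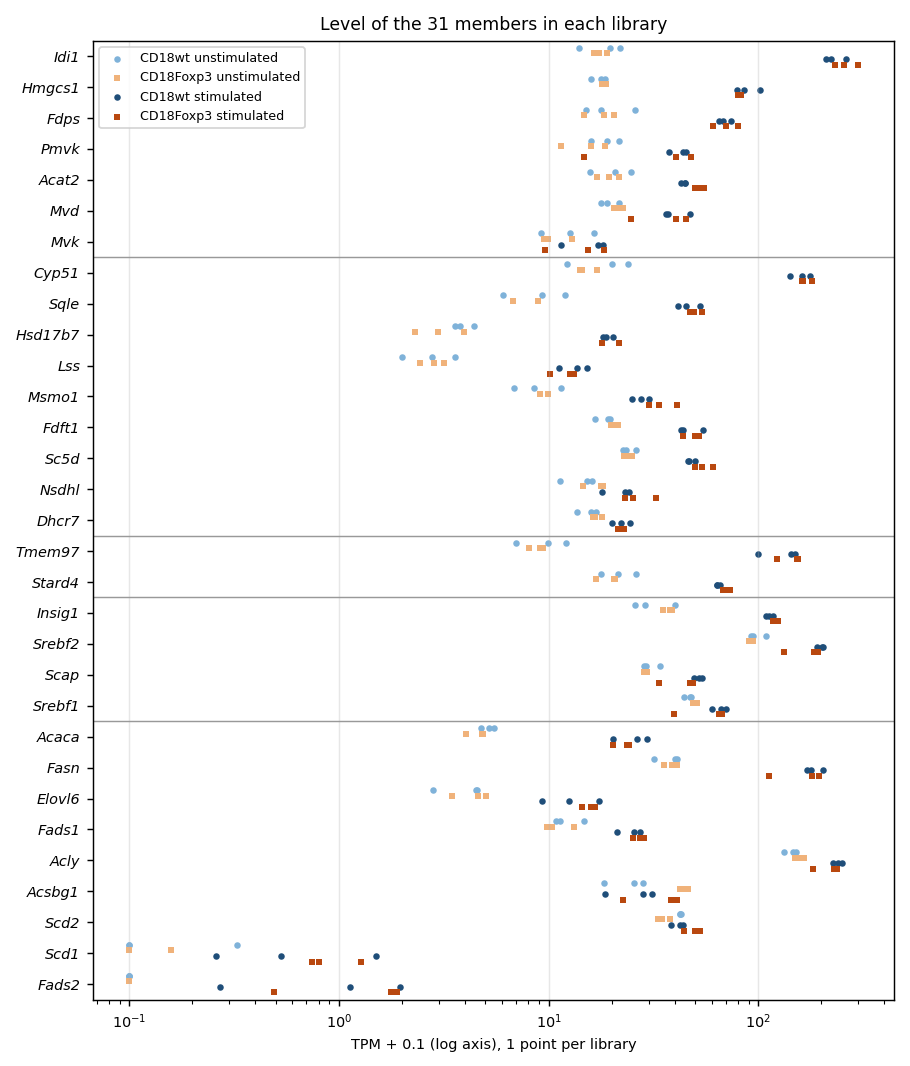
Each point is 1 library, at its TPM plus 0.1 on a log axis, for the 31 members in rows grouped by role; circles are CD18wt, squares CD18Foxp3, pale unstimulated and dark stimulated. The stimulated Idi1 points lie between 211 and 299 TPM and the unstimulated ones between 13.9 and 21.8 TPM.

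In the mevalonate segment the rise was largest for Idi1, the isomerase that makes dimethylallyl diphosphate. Idi1 (chr13:8885501-8892451, GRCm38) was at 13.9, 19.5 and 21.8 TPM in unstimulated and 223, 211 and 261 TPM in stimulated CD18wt Treg. In CD18Foxp3 Treg it was at 16.4, 17.3 and 19 TPM unstimulated and 299, 232 and 256 TPM stimulated. The cultures did not overlap in either genotype, and exon reads were 9.5-fold higher in CD18wt (log2 3.25 ± 0.18 SE, edgeR adjusted p = 9.9e-08) and 11.7-fold higher in CD18Foxp3 Treg (log2 3.54 ± 0.15, edgeR adjusted p = 7.7e-07).

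Hmgcs1, which makes HMG-CoA, was at 15.8, 17.7 and 18.4 TPM unstimulated and 85.9, 79.5 and 102 TPM stimulated in CD18wt Treg, and at 18.3, 18.8 and 17.8 against 80.4, 80.9 and 82.3 TPM in CD18Foxp3 Treg. It rose by 1.96 ± 0.14 and 1.79 ± 0.10 (log2, SE). Fdps, which makes farnesyl diphosphate, rose by 1.42 ± 0.20 and 1.62 ± 0.15, and Acat2, the cytosolic acetoacetyl-CoA thiolase, by 0.73 ± 0.19 and 1.08 ± 0.13. Only 29.9% of Fdps reads and 58.3% of Acat2 reads were placed uniquely. Fdps shares 22.9% of its 59-base words with the overlapping gene Gm43738, which had 11 reads in all, and Acat2 shares 37.2% with Acat3 and 10.5% with Tcp1. Over all libraries Acat3 had 174 and Tcp1 86977 exon reads, against 5753 of Acat2. Restricted to unique reads, Acat2 in CD18wt Treg had a log2 fold change of 0.70 and missed the threshold (edgeR adjusted p = 0.013).

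The kinases and the decarboxylase act between these steps. Pmvk, phosphomevalonate kinase, rose by 0.77 ± 0.21 in CD18wt Treg (edgeR adjusted p = 0.0087), a call lost with the replicate block (0.015) and in a single fit of 12 libraries (0.063). In CD18Foxp3 Treg its difference was 0.80 ± 0.37 (edgeR adjusted p = 0.098), with 14.7 TPM in library 1 against 40.5 and 47.5 TPM in its mates. Mvd, mevalonate diphosphate decarboxylase, had differences of 0.65 ± 0.19 and 0.40 ± 0.22 (log2), short of the threshold in both genotypes. Without library 1, Pmvk (1.14) and Mvd (0.59) passed it in CD18Foxp3 Treg. Mvk, mevalonate kinase, had values of -0.12 ± 0.26 and 0.06 ± 0.24, and its libraries overlapped between the cultures.

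In the squalene and sterol segment 7 of 9 members rose in CD18wt and 7 of 9 in CD18Foxp3 Treg, and 7 also without library 1 of the latter. Of all genes tested, 18.7% rose in CD18wt and 20.9% in CD18Foxp3 Treg, the latter with or without that library. Cyp51, the lanosterol demethylase (chr5:4081145-4104746), was at 12.1, 19.9 and 23.9 TPM unstimulated and 142, 176 and 161 TPM stimulated in CD18wt Treg. In CD18Foxp3 Treg it was at 14.3, 14.1 and 17 against 181, 161 and 164 TPM. The cultures did not overlap, and exon reads rose 6.52-fold (edgeR adjusted p = 2.2e-05) and 8.66-fold (edgeR adjusted p = 6.8e-07).

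Sqle, squalene epoxidase, which catalyses a rate-limiting step, was at 5.94, 9.2 and 11.9 TPM unstimulated and 41.3, 45 and 52.7 TPM stimulated in CD18wt Treg. It rose by 1.96 ± 0.24 there and by 2.26 ± 0.15 in CD18Foxp3 Treg. Hsd17b7, a sterol ketoreductase, rose by 1.92 ± 0.19 and 2.33 ± 0.22, and Lss, lanosterol synthase, by 1.90 ± 0.22 and 1.77 ± 0.16. Msmo1, a sterol oxidase, rose by 1.23 ± 0.21 and 1.5 ± 0.15, Fdft1, squalene synthase, by 0.95 ± 0.17 and 0.88 ± 0.12, and Sc5d, a sterol desaturase, by 0.59 ± 0.13 and 0.85 ± 0.13.

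The other two members of this segment did not pass the threshold. Nsdhl, a sterol dehydrogenase, had log2 differences of 0.22 ± 0.21 and 0.32 ± 0.18. Dhcr7, which completes cholesterol, had 0.13 ± 0.17 (95% interval -0.23 to 0.49) and 0.01 ± 0.11 (-0.25 to 0.26), at a mean of 15.4 TPM unstimulated and 22.1 TPM stimulated in CD18wt Treg.

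Of the sterol handling genes, Tmem97, which encodes a sterol-responsive membrane protein (chr11:78541817-78550777), rose most of all tested members in CD18wt Treg. Tmem97 was at 6.88, 9.82 and 12 TPM unstimulated and 99.8, 143 and 150 TPM stimulated in CD18wt Treg, and at 8.97, 7.95 and 9.35 against 154, 123 and 153 TPM in CD18Foxp3 Treg. Its exon reads rose 10.5-fold (edgeR adjusted p = 7.9e-07) and 12.7-fold (edgeR adjusted p = 1.2e-06). Stard4, a cytosolic sterol carrier, rose by 1.16 ± 0.17 and 1.51 ± 0.12 on the log2 scale.

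**Figure D2:**
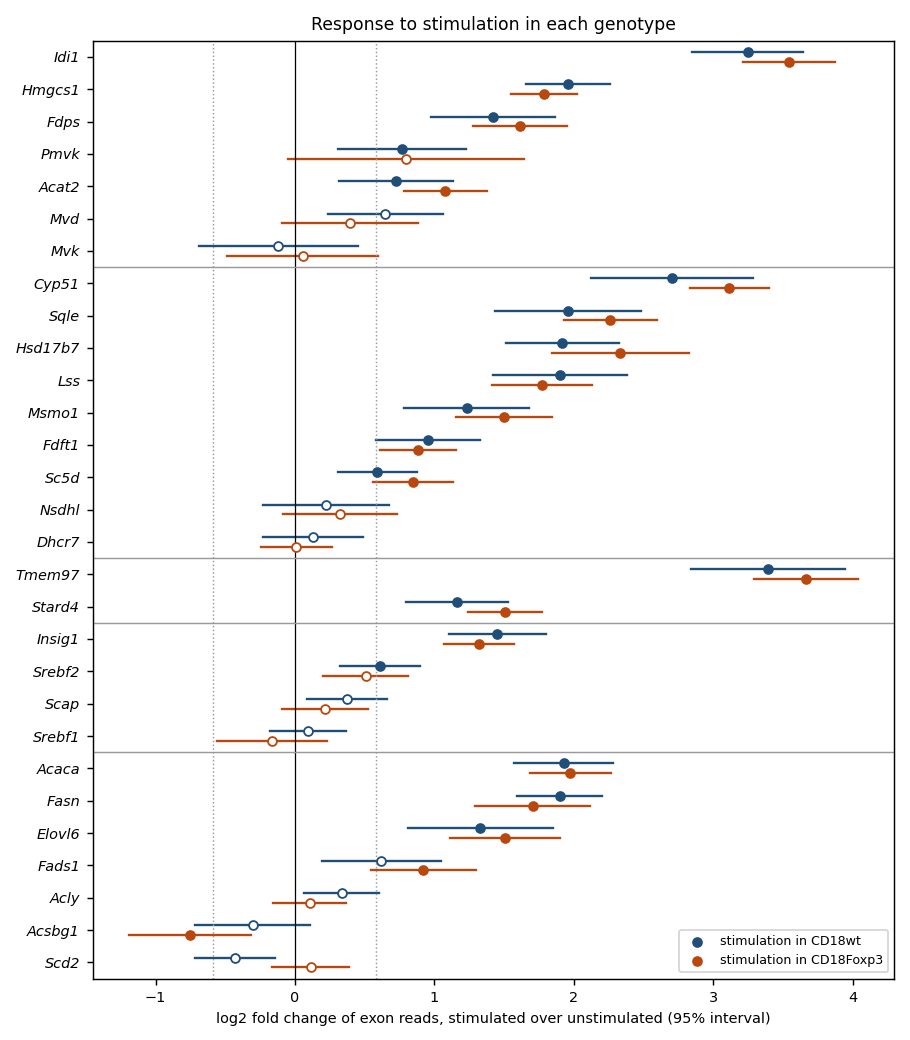
Log2 fold change of exon reads between stimulated and unstimulated Treg with its 95% interval, for 29 members, blue in CD18wt and orange in CD18Foxp3; filled points passed the threshold, dotted lines mark a fold of 1.5, and Scd1 and Fads2 are left out for their few reads. The points run from Acsbg1 at -0.75 in CD18Foxp3 to Tmem97 at 3.67 in CD18Foxp3.

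Among the regulators, Insig1, itself a target of SREBP, was at 28.8, 40.2 and 25.7 TPM unstimulated and 109, 118 and 112 TPM stimulated in CD18wt Treg and rose 2.74-fold (edgeR adjusted p = 1.1e-05). In CD18Foxp3 Treg it rose 2.5-fold (edgeR adjusted p = 1.5e-05). Srebf2 rose by 0.61 ± 0.13 in CD18wt Treg (edgeR adjusted p = 0.0019). In CD18Foxp3 Treg its difference was 0.51 ± 0.13 (edgeR adjusted p = 0.01004), just short of the threshold, and 0.63 without library 1, which passed. Srebf1 had values of 0.09 ± 0.12 and -0.17 ± 0.17 and Scap of 0.37 ± 0.13 and 0.21 ± 0.14, none past the threshold. In CD18Foxp3 Treg Srebf1 was at 39.5 TPM in stimulated library 1 against 67 and 64.8 TPM in its mates.

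In the fatty acid segment, 3 of 7 tested members rose in CD18wt and 5 of 8 in CD18Foxp3 Treg, 5 also without library 1. Of all genes tested, 18.7% rose in CD18wt and 20.9% in CD18Foxp3 Treg. The CD18Foxp3 counts include Scd1, which passed the filter only through its stimulated libraries and was not tested in CD18wt. Fasn, fatty acid synthase, was at 40.7, 40 and 31.6 TPM unstimulated and 170, 178 and 203 TPM stimulated in CD18wt Treg. In CD18Foxp3 Treg it was at 35.5, 41.1 and 38.8 against 112, 194 and 180 TPM. Exon reads rose 3.73-fold and 3.26-fold (edgeR adjusted p = 4.9e-07 and 5.9e-05). Acaca, acetyl-CoA carboxylase, which commits acetyl-CoA to fatty acids, rose by 1.93 ± 0.16 and 1.98 ± 0.13, and the elongase Elovl6 by 1.33 ± 0.24 and 1.51 ± 0.17. The desaturase Fads1 rose by 0.92 ± 0.17 in CD18Foxp3 Treg and was 0.62 ± 0.20 higher in CD18wt Treg, short of the threshold (edgeR adjusted p = 0.019). Acly, which makes cytosolic acetyl-CoA from citrate, had the highest unstimulated level of the members, 144 ± 10.2 TPM (SD, n = 3) in CD18wt, and differences of 0.33 ± 0.12 and 0.11 ± 0.12 (log2, SE).

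The desaturases differed widely in level. Scd2 was at 42.4, 42.1 and 42.9 TPM unstimulated and 43.9, 42.3 and 38.4 TPM stimulated in CD18wt Treg, with a log2 difference of -0.43 ± 0.13 (edgeR adjusted p = 0.016), and of 0.11 ± 0.12 in CD18Foxp3 Treg. Scd1 had 7 reads in the unstimulated and 51 in the stimulated CD18wt libraries, a ratio per total reads of 7.36 (95% exact interval 3.33 to 19.2, counting error only), and 39 of those 51 reads came from 1 library. In CD18Foxp3 Treg it had 2 and 71 reads, a ratio of 35 (9.35 to 295). There Scd1 passed the filter only through its stimulated libraries, so only a rise could be called. Its call (edgeR adjusted p = 0.0015) adds no support of its own. Fads2 had 0 reads in all 6 unstimulated libraries and 25 and 34 reads in the stimulated CD18wt and CD18Foxp3 libraries, at least 8.42-fold and 11.2-fold higher when 3 reads are taken as the floor of a group. Scd1 was not tested in CD18wt and Fads2 in neither genotype.

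Acsbg1, an acyl-CoA synthetase (chr9:54604877-54661870), was the only member that fell past the threshold. In CD18Foxp3 Treg it was at 44.2, 42.2 and 46.2 TPM unstimulated and 22.5, 38.1 and 41.1 TPM stimulated, so the cultures did not overlap, with a log2 difference of -0.75 ± 0.19 (edgeR adjusted p = 0.0086). Without library 1, the lowest, it was -0.56, short of a fold of 1.5. The call was also lost without any 1 of the unstimulated libraries or without stimulated library 2 (edgeR adjusted p = 0.017 to 0.030). On TPM it was -0.42 and not called (limma on log2(TPM + 1), adjusted p = 0.13). In CD18wt Treg it was at 28.1, 25.6 and 18.3 against 31.2, 18.5 and 28 TPM, with -0.30 ± 0.19 by exon reads and 0.09 by TPM (limma on log2(TPM + 1)), and was not called by either.

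**Figure D3:**
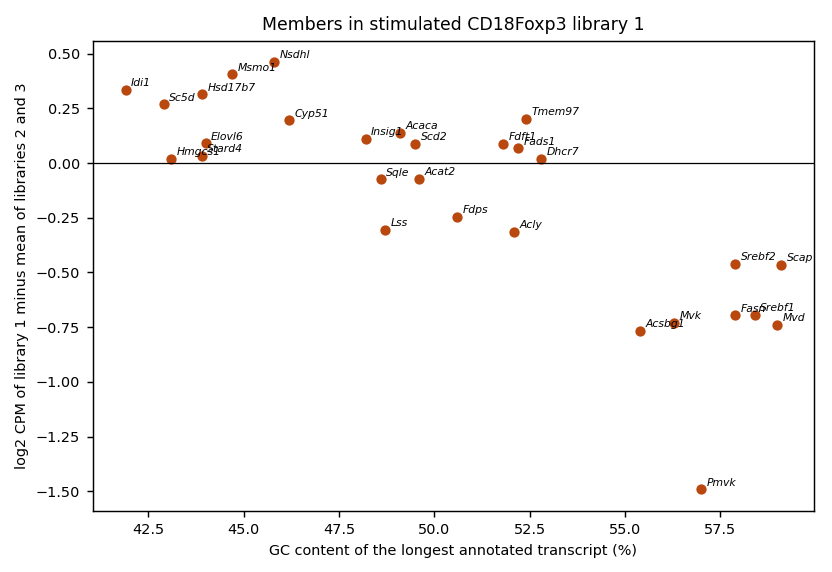
Each point is a member, at the GC content of its longest annotated transcript and at its log2 CPM in stimulated CD18Foxp3 library 1 minus the mean of libraries 2 and 3. The 8 members in the highest GC class, Pmvk lowest at -1.49, all lie below 0; the part of GC content in the results was not tested.

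Between genotypes, no member passed the threshold. In unstimulated Treg 0 of 29 tested members were called, against 0.135% of 11829 genes (16), and in stimulated Treg 0 of 31, against 0% of 11930 genes, by edgeR. At an unadjusted p under 0.05, 2 members and 1134 genes were found unstimulated, and 0 members and 583 genes stimulated; DESeq2 called 1 member unstimulated, with 34 genes higher and 52 lower in CD18Foxp3 Treg, and 0 members stimulated, with 17 genes higher and 5 lower. On TMM-scaled CPM the libraries of the genotypes did not overlap for 2 of 29 members unstimulated, against 16.7% of all genes tested, and for 3 of 31 stimulated, against 9.89%. On TPM it was 4 members unstimulated, against 15.6%, and 4 stimulated, against 9.43%. Without stimulated CD18Foxp3 library 1, with fewer libraries to overlap, it was 5 stimulated members on CPM, against 18.2%, and 6 on TPM, against 17.9%. The 95% interval of a member's difference had a median half-width of 0.346 unstimulated and 0.377 stimulated on the log2 scale.

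Acsbg1 was nearest to the threshold in unstimulated Treg. Its CD18wt libraries at 28.1, 25.6 and 18.3 TPM all lay below the CD18Foxp3 libraries at 44.2, 42.2 and 46.2 TPM. Exon reads were 0.85 ± 0.12 higher in CD18Foxp3 (log2, SE, edgeR adjusted p = 0.013), and over the alternatives that p ran from 1.9e-10 to 0.255. DESeq2 called it (adjusted p = 1.3e-06), as did edgeR without CD18wt unstimulated library 3 (0.00081), while limma on log2(TPM + 1) did not (0.13). That library was the lowest of its group for Acsbg1, and without it the difference was 0.73. The two-sided exact permutation test of the log2(TPM + 1) values of Acsbg1 gave p = 0.1, the smallest that 3 against 3 allows. After stimulation the difference was 0.41 ± 0.24 (95% interval -0.10 to 0.93), and the libraries overlapped. Without stimulated CD18Foxp3 library 1 it was 0.63 (edgeR adjusted p = 0.77), and the libraries did not overlap. The difference between the differences over all libraries was -0.45 ± 0.29 (edgeR adjusted p = 0.99).

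Scd2 was the other member whose unstimulated libraries did not overlap on CPM, and on TPM it was at 42.4, 42.1 and 42.9 TPM in CD18wt against 34.8, 37.7 and 33.1 TPM in CD18Foxp3 Treg, a log2 difference of -0.29 ± 0.09 (edgeR adjusted p = 0.28). After stimulation the difference was 0.25 ± 0.16, with 43.9, 42.3 and 38.4 TPM in CD18wt against 49.9, 44.3 and 52.7 TPM in CD18Foxp3 Treg, which did not overlap on TPM and did on CPM. In the test of the interaction, Scd2 had 0.54 ± 0.18, an unadjusted p of 0.0087 by edgeR and an adjusted p of 0.99. On TPM the unstimulated libraries also did not overlap for Fdft1 and Srebf1, with differences of exon reads of 0.13 ± 0.12 and 0.07 ± 0.09.

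The 3 members that did not overlap on CPM after stimulation were Hmgcs1 and Scap, lower in CD18Foxp3 by 0.12 ± 0.14 and 0.26 ± 0.17 (log2, SE), and Acat2, 0.25 ± 0.16 higher. Scap, of the highest GC class, was at 33.7 TPM in stimulated CD18Foxp3 library 1 and at 48.9 and 47 TPM in its mates. In stimulated CD18wt Treg it was at 49.5, 54.1 and 52.1 TPM. Without that CD18Foxp3 library Scap still did not overlap on CPM. On TPM the libraries of Hmgcs1 overlapped, and those of Scap, Acat2, Scd2 and Stard4 did not. For the interaction of genotype and stimulation 0 of 31 members were called, against 0% of 12636 genes, with 1 member and 485 genes at an unadjusted p under 0.05 by edgeR. The interaction of Tmem97 was 0.27 ± 0.31 and that of Idi1 0.29 ± 0.23, with 95% intervals of -0.39 to 0.92 and -0.20 to 0.77.

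**Figure D4:**
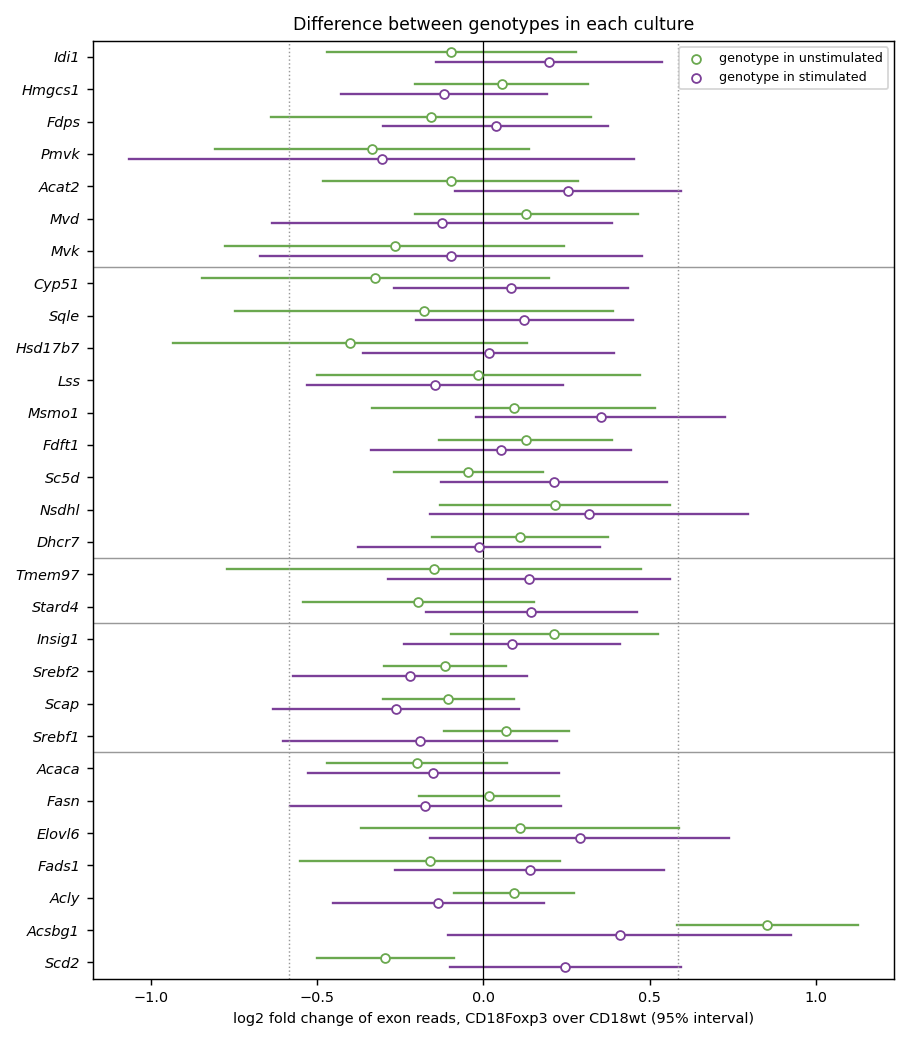
Log2 fold change of exon reads between CD18Foxp3 and CD18wt Treg with its 95% interval, green unstimulated and purple stimulated, for 29 members; open points did not pass the threshold, and dotted lines mark a fold of 1.5. All points are open, and Acsbg1 unstimulated lies farthest from 0, at 0.85.

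Reads in introns, which come largely from transcripts not yet spliced, were few. Of 23 members tested in CD18wt Treg 1 rose (Fads1), against 2.71% of 9492 genes, and of 27 in CD18Foxp3 Treg 2 rose (Msmo1 and Srebf2), against 15% of 10260 genes. Without library 1 the same 2 of 28 rose, against 12.2% of 10435 genes. Fads1 had 0, 2 and 0 intron reads unstimulated and 13, 23 and 39 stimulated in CD18wt Treg. There Fads1, and in CD18Foxp3 Treg Msmo1, passed the filter only through their stimulated libraries, so only a rise could be called. Neither call adds support of its own. Intron reads of Msmo1 were 11, 2 and 4 unstimulated and 54, 37 and 45 stimulated in CD18Foxp3 Treg, a log2 difference of 2.48 ± 0.54 (edgeR adjusted p = 0.00016). In CD18wt Treg they were 10, 10 and 0 against 42, 16 and 34, and the difference of 1.87 ± 0.76 did not pass (edgeR adjusted p = 0.093). Srebf2 introns had 71, 52 and 81 reads unstimulated and 259, 211 and 183 stimulated in CD18Foxp3 Treg, a rise of 1.12 ± 0.22 (edgeR adjusted p = 4.8e-05). Sqle, whose exon reads rose, had intron differences of -0.02 ± 0.55 and 0.24 ± 0.41. Insig1 had -0.34 ± 0.79 and -0.66 ± 0.29, neither past the threshold. CD18wt unstimulated library 3 was the shallowest, with 3.32% of its reads in introns.

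Genes of the same pathway outside the members moved in part. Of 13 further sterol pathway genes, 4 rose and 1 fell in CD18wt and 4 rose and 1 fell in CD18Foxp3 Treg. Among all genes tested, 18.7% rose and 14.9% fell in CD18wt, and 20.9% and 17.6% in CD18Foxp3 Treg. Pdss1, of ubiquinone synthesis, went from 1.54 ± 1.15 to 9.24 ± 1.54 TPM (SD, n = 3) in CD18wt Treg, a log2 rise of 2.17 ± 0.41 (SE). Lbr, a nuclear envelope protein with sterol reductase activity, fell by 0.74 on the log2 scale.

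Of 11 genes of SREBP processing 0 rose and 1 fell in CD18wt, the ubiquitin ligase gene Rnf139, by 0.71 on the log2 scale, and 2 rose and 2 fell in CD18Foxp3 Treg. These counts stand beside 18.7% that rose and 14.9% that fell of all genes in CD18wt, and 20.9% and 17.6% in CD18Foxp3 Treg. Of 11 tested genes of sterol efflux and LXR targets, 1 rose and 4 fell in CD18wt Treg, and of 10 tested in CD18Foxp3 Treg again 1 rose and 4 fell. The cholesterol exporter Abca1 was at 5.16, 4.55 and 4.32 TPM unstimulated and 0.1, 0.185 and 0.15 TPM stimulated in CD18wt Treg. It fell by 5.34 on the log2 scale, a size that rests on 4, 11 and 8 stimulated reads. In CD18Foxp3 Treg it had 13, 12 and 3 stimulated reads. In both genotypes Abca1 passed the filter only through its unstimulated libraries, so only a fall could be called. Abcg1, also an exporter, was at 71.8, 59.7 and 73.4 against 22.1, 10.8 and 7.39 TPM and fell by 2.77. Lpcat3, a phospholipid acyltransferase, rose by 1.17 ± 0.19.

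Of 15 tested lipogenesis genes outside the members, 7 rose and 3 fell in CD18wt Treg, and of 16 in CD18Foxp3 Treg 9 rose and 2 fell. The 9 include Me1, with 0, 1 and 0 reads unstimulated and 22, 14 and 17 reads stimulated. Me1 passed the filter there only through its stimulated libraries, so only a rise could be called, and its call adds no support. The shares of all genes were 18.7% that rose and 14.9% that fell in CD18wt, and 20.9% and 17.6% in CD18Foxp3 Treg. Fabp5, a fatty acid binding protein, rose by 2.38 ± 0.18 and Aacs, acetoacetyl-CoA synthetase, by 1.3 ± 0.16 in CD18wt Treg. Acss2, which makes acetyl-CoA from acetate, fell by 1.98 and the elongase gene Elovl5 by 1.15. Of 13 tested fatty acid oxidation genes, 1 rose (Ppard) and 1 fell (Hadhb) in CD18wt Treg, and 1 rose and 2 fell in CD18Foxp3 Treg. Without stimulated CD18Foxp3 library 1, the lipogenesis count became 7 that rose, without Acsl3 and Acsl5, and the counts of the other 4 lists did not change. No gene of these 5 lists passed the threshold between genotypes in either culture by edgeR, against 0.135% of all genes unstimulated and 0% stimulated.

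**Figure D5:**
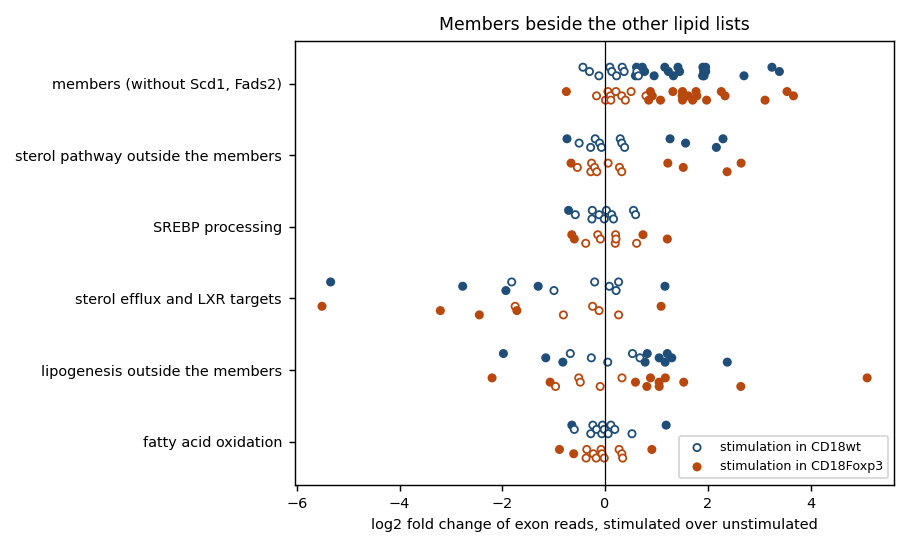
Each point is a tested gene at its log2 fold change of exon reads on stimulation, blue in CD18wt and orange in CD18Foxp3 Treg, in rows for the members and 5 other lists; filled points passed the threshold. Abca1, with at most 13 reads in a stimulated library, lies farthest left, at -5.34 in CD18wt and -5.51 in CD18Foxp3 Treg.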

How the data were processed

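RNA-Seq of 12 libraries of splenic Treg was analysed. The authors mapped 59-base single reads to GRCm38 in CLC Genomics Workbench and deposited unnormalized counts of exon, intron and uniquely placed reads per gene. The authors also deposited TPM, which scale counts per exon length to the same total in every library. Whether counting used strand is not given in the sources used here. Without strand, reads of 10 members (Hmgcs1, Idi1, Fdft1, Lss, Cyp51, Mvd, Srebf1, Acaca, Elovl6 and Scap) could not be told apart from those of a gene on the other strand where they overlap. Groups and replicate numbers came from the labels.

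Exon counts of each comparison were filtered (filterByExpr, minimum count 10), TMM-normalized and tested with the edgeR 4.0.16 quasi-likelihood F-test with robust dispersion in R 4.3.3. Adjustment was by Benjamini-Hochberg over all genes tested, and the threshold was a fold of 1.5 with an adjusted p of 0.01. The SE is the log2 fold change over the square root of F. On simulated data, 69% to 81% of 200 changed genes were recovered. As alternatives, TPM on the log2 scale went into limma 3.58.1 with a pseudocount of 1 or 0.1, and counts into DESeq2 1.42.0. Others were unfiltered genes, unique placements, a single fit of 12 libraries, a block for replicate number, a looser adjusted p (0.05) and dropping single libraries. Members and lists were chosen with earlier results of these data known. Genes outside the members were named by a rule: the 2 largest rises and 2 largest falls past the threshold in CD18wt Treg per list, and some of these are not reported here. Counting intervals and floors cover counting error only, since libraries were amplified by PCR.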

Additional observations from a re-analysis of the deposited data

How the results depend on the processing

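The count of members that rose on stimulation was 18 to 23 in CD18wt and 19 to 21 in CD18Foxp3 Treg over the alternatives other than leaving out libraries. Leaving out each library gave 15 to 19 and 19 to 22 members that rose, and 0 and 0 to 1 that fell. In CD18wt Treg, calls were lost without unstimulated library 1 for Pmvk, Acat2, Sc5d and Srebf2, without unstimulated library 2 for Pmvk, without stimulated library 1 for Pmvk, Acat2 and Sc5d, without stimulated library 2 for all 4 of them, and without stimulated library 3 for Pmvk and Acat2, while Mvd passed. Pmvk was also lost with the replicate block and in a single fit of 12 libraries, and Sc5d with DESeq2, at 0.57. Members lower in CD18Foxp3 Treg went from 1 (Acsbg1) to 0 with limma on log2(TPM + 1) and to 0 with log2(TPM + 0.1). Between genotypes in unstimulated Treg the count went from 0 to 1, Acsbg1, with each of DESeq2, no filter, uniquely placed reads, the replicate block and an adjusted p of 0.05, and was 0 to 1 when libraries were left out. It stayed at 0 in stimulated Treg and for the interaction. Between genotypes the replicate block joins same-numbered libraries of different mice, which the labels do not link, so that call carries little weight.

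Some small differences changed sign. With limma on log2(TPM + 1) and on log2(TPM + 0.1), Mvk in CD18wt became 0.29 and 0.31, Acsbg1 0.0943 and 0.0973, and Srebf1 in CD18Foxp3 Treg 0.16 and 0.17, on a scale where the median of all genes was 0.358 in CD18wt and 0.31 in CD18Foxp3 Treg. Dhcr7 in CD18Foxp3 Treg became -0.00568 with DESeq2. With single libraries left out, Mvk ran from -0.33 to 0.15 in CD18wt (above 0 without unstimulated library 3) and from -0.13 to 0.25 in CD18Foxp3 Treg. Dhcr7 ran from -0.0386 to 0.21 in CD18wt (below 0 without stimulated library 2) and from -0.0392 to 0.0537 in CD18Foxp3 Treg, and Srebf1 in CD18Foxp3 Treg from -0.28 to 0.0131 (above 0 without stimulated library 1). Without a filter, intron differences of Sc5d and Elovl6 in CD18wt became -0.0321 and -0.0566, and of Srebf1 in CD18Foxp3 -0.00321. The cause was not tested. Restricting promoters to the 250 bases before the start left CCAAT in 75% of the 24 members with a promoter, against 37.5% of all genes with one. Members whose genotypes did not overlap went from 2 on CPM to 4 on TPM unstimulated, and from 3 to 5 without CD18Foxp3 library 1 stimulated. These overlap settings and the counts of lists and intron reads without that library were chosen after seeing the data.

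The deposited files carry a further number that same-numbered libraries of both cultures of a genotype share, and the labels do not say whether it marks an animal. Deviations of same-numbered libraries correlated at r = 0.096, -0.020 and -0.095 in CD18wt and 0.135, 0.070 and 0.147 in CD18Foxp3 Treg. In CD18Foxp3 Treg every library correlated best with its own number (highest other r -0.021), and in CD18wt only those numbered 1 did. Not every r exceeded 0.1, so the numbers were not taken as pairs. These correlations do not settle whether same-numbered cultures came from the same mouse. The main fits on stimulation leave out any such link in their SE and p-values. With the replicate block 18 and 19 members rose.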
